A study of Mus musculus with 287 samples.

Results

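Emx1, Emx2, Lhx2, Pax6, Otx1, Dmrta2 and Gli3 are 7 transcription factor genes that pattern the dorsal forebrain, and they were followed here through single cells of mouse cerebral organoids. They were taken by symbol from the table of exon counts, where all 7 were found among 55359 gene IDs, and read in the labelled cells with at least 1000 genes detected in exons, which were 90, 80 and 77 cells on plates 1, 2 and 3, with 37 labelled cells left out. The organoids were grown from mouse embryonic stem cells of genotype MADM-11GT/TG;Emx1-CreER+/-. MADM (mosaic analysis with double markers) uses Cre recombination between homologous chromosomes to label the daughters of a dividing progenitor green or red. Here the genotype names an inducible Cre driven by Emx1. Every group shares this genotype, induction at day 13 with 60 nM 4-hydroxytamoxifen, and collection at day 20. The cells compared differ in clone type, which the labels call SN or N without saying what the letters stand for, in colour and in clone size. Of the cells read, 53.0% came from SN clones and 47.0% from N clones. The labels name no organoid, so clones may share an organoid and the p-values below measure the spread between clones only. Because the label depends on Emx1-driven Cre, only descendants of cells in which that Cre acted were available. Whether the Cre sits in the Emx1 locus, and whether its allele still gives Emx1 RNA, is not stated.

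The cerebral cortex forms from the dorsal part of the telencephalon, and the genes studied here mark and pattern it. Emx1 and Emx2 are paralogous homeobox genes of the dorsal field: Emx1 is also kept on in the excitatory neurons made there, which is why it is widely used to drive Cre, while Emx2 and Pax6 run in opposing gradients through the progenitors and set cortical areas. Lhx2 is a LIM homeobox selector that holds progenitors to a cortical fate and away from the cortical hem, the Wnt-producing edge of the cortex. Dmrta2 is a zinc finger factor of the medial cortex, Otx1 a homeobox factor of progenitors and later of deep-layer neurons, and Gli3 the Hedgehog effector that acts mainly as a repressor and permits dorsal identity.

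The promoter of Emx1 is shown because the Cre that gave the label is named for that gene. The promoter of Emx2 is shown because Emx2 is the paralog of Emx1. Each run is the 250 bases directly before the RefSeq start in GRCm38.p6, on the plus strand, Emx1 at chr6:85187681-85187930 and Emx2 at chr19:59458440-59458689. Capitals mark matches to GGGCGG or CCAAT on either strand, and overlapping matches run together.

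Emx1: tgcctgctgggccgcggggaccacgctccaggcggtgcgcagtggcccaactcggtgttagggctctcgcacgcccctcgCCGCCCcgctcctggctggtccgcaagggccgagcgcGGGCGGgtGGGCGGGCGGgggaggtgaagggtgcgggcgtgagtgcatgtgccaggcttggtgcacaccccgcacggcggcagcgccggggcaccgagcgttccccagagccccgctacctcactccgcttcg

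Emx2: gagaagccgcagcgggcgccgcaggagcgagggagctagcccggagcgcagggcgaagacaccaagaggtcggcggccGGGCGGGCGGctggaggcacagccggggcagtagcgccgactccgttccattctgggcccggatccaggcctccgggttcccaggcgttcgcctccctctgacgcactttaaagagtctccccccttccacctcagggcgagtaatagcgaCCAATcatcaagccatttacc

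The Emx1 promoter is 75.6% G or C with 4 matches to GGGCGG, and that of Emx2 is 67.2% G or C with 2 matches to GGGCGG and 1 to CCAAT. Of 32851 mouse promoters of that length, 32.7% hold GGGCGG, 33.8% hold CCAAT, 12.4% hold TATAAA and 4.84% hold TAATTA on either strand. Neither TATAAA nor the homeobox core TAATTA occurs in the window of any of the 6 members with an entry. The Gli3 window and the upstream Lhx2 window hold 2 and 4 matches to GGGCGG, and the Dmrta2 window holds 3 matches to CCAAT. The files were counted on a later build, so these coordinates belong to the sequences and not to the counts.

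Depth varied widely. The total of exon counts per cell ran from 6171 to 13040432 with a median of 1517431, and the medians were 1365828 in SN and 1887116 in N cells. The counts are of reads and no use of molecular identifiers is stated. The Wilson intervals on shares of cells below treat cells as independent. Cells share clones, so these intervals leave out the spread between clones. Genes of tissues not expected here were counted in 1 to 6 of the cells (Alb and Ins2 in 1, Myod1 in 2, Hbb-bs in 5 and Cldn5 in 6). Mesenchyme markers were counted more widely, Col3a1 in 36.8%, Col1a1 in 30.0%, Col1a2 in 22.7% and Dcn in 22.3% of cells. Of the choroid plexus markers Ttr was counted in 27.5%, Folr1 in 3.64%, and Kcnj13 and Aqp1 in 2.83% each. Markers of excitatory neurons and of radial glia were both widely counted: the median marker of 10 was counted in 98.8% of cells with and 93.9% without an Emx1 count for neurons, and in 82.7% and 61.7% for radial glia.

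Lhx2 was the most widely counted of the 7 genes in exons. The homeobox gene Emx1 had an exon count in 84 cells (34.0%, 95% Wilson interval 28.4 to 40.1), with a level in those cells from 0.169 to 341 CPM (counts per 1000000 exon counts of the cell) and a median of 17.5 CPM. Its paralog Emx2 was counted in 97 cells (39.3%, 33.4 to 45.5), from 0.255 to 922 CPM with a median of 30.1 CPM. Lhx2 was counted in 78.5% of cells (73.01 to 83.2), from 0.212 to 1331 CPM with a median of 115.3 CPM. The intervals of Emx1 and Emx2 overlap each other, and that of Lhx2 lies above all others. Pax6, the paired-box gene of radial glia, was second with 55.9% of cells (49.6 to 61.9) and a median of 19.1 CPM, but 35 of these cells held only 1 to 3 counts. Otx1 and Gli3 were each counted in 88 cells (35.6%, 29.9 to 41.8), at medians of 21.8 and 22.5 CPM. Dmrta2 was counted in 78 cells (31.6%, 26.1 to 37.6) at a median of 11.0 CPM. The separate intervals of the 5 genes Emx1, Emx2, Otx1, Dmrta2 and Gli3 thus all overlap. The genes were read in the same cells, which share clones, so overlap does not test their order, and that order was not tested.

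High levels came from few cells for every gene but Lhx2. The 10 highest cells held 54.4% of the summed CPM of Emx1, 54.2% of Emx2, 48.5% of Pax6, 52.4% of Otx1, 63.7% of Dmrta2 and 59.5% of Gli3, against 22.1% of Lhx2. Some of these cells were shallow, and 1 or 2 of the 10 highest of Emx2, Lhx2, Pax6, Otx1 and Gli3 held under 100000 exon counts. The highest Gli3 value, 1620 CPM, is 10 counts in the shallowest cell read (6171 exon counts), and the highest Otx1 value, 556 CPM, is 13 counts of 23386. The 3 highest Emx2 cells, at 922, 912 and 643 CPM, had totals of 139907, 37292 and 65283 exon counts. The highest Lhx2 cell, at 1331 CPM, held 446 counts of 334989 and lay in an N clone. Without the cells under 100000 exon counts the 10 highest held 46.8% of Emx2, 51.3% of Pax6, 49.8% of Otx1, 51.5% of Gli3 and 22.4% of Lhx2, and the highest Gli3 cell stood at 368 CPM. Across all cells read the median level was 80.6 CPM for Lhx2, 0.603 CPM for Pax6 and 0 for the other 5 genes.

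Detection rose with depth for all 7 genes. With the cells divided into 4 nearly equal bins by total, the share with a count went, shallowest to deepest bin, from 11.3% to 67.7% for Emx1, from 12.9% to 69.4% for Emx2 and from 46.8% to 98.4% for Lhx2. It went from 27.4% to 85.5% for Pax6, from 12.9% to 64.5% for Otx1, from 6.45% to 59.7% for Dmrta2 and from 8.06% to 62.9% for Gli3. The shallowest bin ended at 493735 and the deepest began at 4173389 exon counts per cell. A cell without a count of Emx1 may therefore hold Emx1 RNA below detection at its depth or may lack it, and these were not told apart. After each cell was thinned to 100000 exon counts, which left out 22 cells that were shallower, Emx1 was counted in 25.8% of the remaining cells, Emx2 in 28.4%, Lhx2 in 77.3%, Pax6 in 38.7%, Otx1 in 26.2%, Dmrta2 in 21.8% and Gli3 in 28.0%. Pax6 fell the most under thinning and Lhx2 the least.

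**Figure D1:**
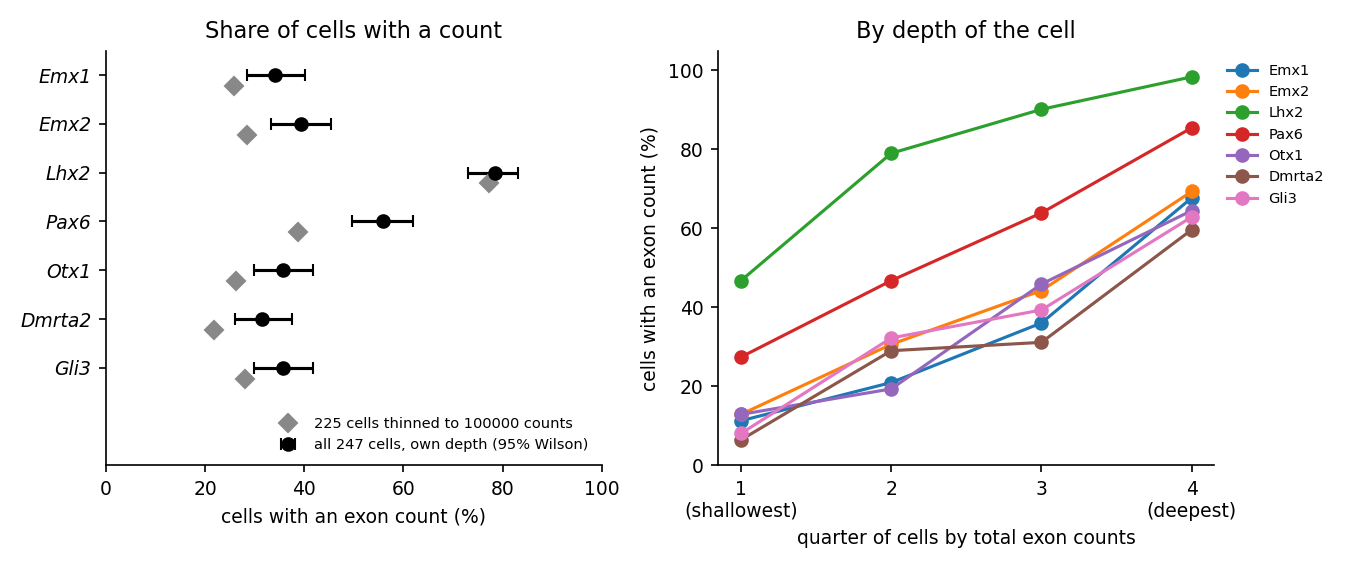
Left, the share of cells with an exon count of each gene in percent, as points with 95% Wilson intervals for all cells at their own depth and as diamonds for the cells thinned to 100000 counts. Right, the same share in 4 bins of cells by total exon counts, where Lhx2 goes from 46.8% to 98.4% and Emx1 from 11.3% to 67.7%.

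Compared per length, Lhx2 also had the highest level. The mean over the 62 clones with at least 2 such cells, in CPM of the clone sum per kilobase of exon, was 32.1 (SD 24.0) for Lhx2, 9.43 (SD 13.4) for Emx2, 7.31 (SD 10.5) for Emx1, 3.58 (SD 6.11) for Dmrta2, 3.35 (SD 4.56) for Pax6, 3.35 (SD 4.29) for Otx1 and 2.88 (SD 4.52) for Gli3. Lhx2 lay above Emx2 in 53 clones and below it in 8, with a mean difference of 22.7 (SD 27.5). Every pair of neighbours in that order, Lhx2 and Emx2 included, had a mean difference smaller than its SD between clones: Emx2 lay above Emx1 in 30 clones and below it in 28, with a mean difference of 2.12 (SD 18.3). By the median over clones, Emx1 (3.87) stood next to Emx2 (3.78), and Dmrta2 came last (0.586). Exon lengths came from an earlier annotation than the one counted, so these values are approximate.

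Intron counts separated Gli3 from the rest. Gli3 had an intron count in 59.9% of cells, of which 80 had no exon count, and introns took 66.4% of all its counts. Emx1 had an intron count in 53 cells, 19 of them without an exon count, and an intron share of 37.8%. For Pax6 (14.2%), Lhx2 (13.6%), Emx2 (7.55%), Dmrta2 (7.39%) and Otx1 (3.29%) introns gave the smaller part. The median intron share of the 11077 genes with an exon count in at least 50 cells was 18.6% (quartiles 3.07 and 44.0), so the share of Gli3 lies above the upper quartile and that of Emx1 within the quartiles. With an exon or an intron count, Gli3 was counted in 68.0% of cells and Emx1 in 41.7%. Antisense partners of 3 members are in the table: Emx2os was counted in 25 cells, 21 of which also had Emx2, Dmrta2os in 18 cells, 11 of which also had Dmrta2, and Pax6os1 in 2 cells. Whether the counting used strand is not stated, so sense and antisense reads of these pairs cannot be told apart.

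Most cells held several of the genes. The median cell had counts of 3 of the 7 (3 in SN and 3 in N cells), 22 cells had none, 100 cells (40.5%) had at least 4 and 17 cells had all 7. Cells with none had a median of 128656 exon counts and cells with all 7 a median of 4970211. At 100000 counts per cell the median was 2 genes, 21 cells had none and 2 cells had all 7.

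A score of excitatory neuron markers minus radial glia markers was taken in the thinned cells (mean log2 level, Pax6 itself left out). The share of cells with a count is given along it for the 7 genes. Emx1 was counted in 18.7% of the 75 cells lowest on the score (95% Wilson 11.5 to 28.9), in 28.0% of the middle cells and in 30.7% of the 75 highest (21.4 to 41.8). Emx2 went from 34.7% (24.9 to 45.9) through 29.3% to 21.3% (13.6 to 31.9). The intervals of the lowest and the highest cells overlap for each of the 7 genes. Lhx2 was counted in 68.0%, 85.3% and 78.7% of these cells, Pax6 in 37.3%, 46.7% and 32.0%, Otx1 in 32.0%, 20.0% and 26.7%, Dmrta2 in 21.3%, 30.7% and 13.3%, and Gli3 in 25.3%, 29.3% and 29.3%. Mean levels in the thinned cells were 11.7, 19.2 and 14.9 CPM for Emx1 and 28.7, 18.3 and 29.3 CPM for Emx2 in the lowest, middle and highest cells. They went from 98.7 through 132.1 to 180.8 CPM for Lhx2 and from 39.7 through 43.3 to 19.6 CPM for Pax6. The score holds no sharp classes, and shares and levels are given as a description with no test.

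Cells with an Emx1 count more often had counts of the other 6 genes, but they were also deeper. Of the 84 cells with Emx1, 91.7% had Lhx2, 76.2% had Pax6, 60.7% had Emx2, 54.8% had Otx1, 52.4% had Gli3 and 51.2% had Dmrta2. Of the cells without it, the shares were 71.8%, 45.4%, 28.2%, 25.8%, 27.0% and 21.5% in the same order. The difference was 32.5 percentage points for Emx2, 30.8 for Pax6, 29.7 for Dmrta2, 29.0 for Otx1, 25.4 for Gli3 and 19.9 for Lhx2. Over the 11076 other genes counted in at least 50 cells the median difference was 28.4 points (quartiles 22.8 and 33.3), so with any count 5 of the 6 genes lay inside the quartiles of all genes and Lhx2 below them. That placing changed with at least 4 counts per cell and gene, where the quartiles were 25.2 and 35.2 points: Otx1 (27.4 points) lay inside them, Pax6 (41.1) above, and Emx2 (23.6), Gli3 (23.5), Lhx2 (22.6) and Dmrta2 (22.2) below. The median total was 4169851 exon counts in cells with Emx1 and 1189217 in those without, with 9655 and 4186 genes detected.

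At 100000 counts per cell the picture changed for Emx2. It was counted in 27.6% of 58 cells with Emx1 and in 28.7% of those without, a difference of −1.16 points, against a median of 14.8 points (quartiles 9.55 and 19.7) over the 7673 genes counted in at least 50 of these cells. Lhx2 differed by 2.66 points and Otx1 by 8.81 points, both below the lower quartile of all genes. Their Wilson intervals with and without Emx1 overlap, at 67.2 to 87.7% and 69.7 to 82.4% for Lhx2. For Otx1 they were 22.1 to 45.6% and 18.1 to 31.0%. The genes set beside them were not matched on share of cells, and the placing was not tested. Gli3 (15.7 points), Pax6 (15.3 points) and Dmrta2 (14.8 points) lay near the median. Thinned cells with Emx1 still held more detected genes, with a median of 6138 against 3537, and the part of this in the shares was not tested. On each plate at full depth all 6 differences were above 0, from 15.5 points for Gli3 on plate 1 to 54.3 points for Pax6 on plate 3, where Pax6 was counted in 79.3% of 29 cells with Emx1 and 25.0% of 48 without. The medians of all genes counted in at least 50 cells of a plate were 22.7, 21.6 and 25.8 points on plates 1, 2 and 3, so differences above 0 were what most genes showed. Emx2 (32.6, 34.5 and 33.0 points), Otx1 (28.6, 23.2 and 37.8) and Dmrta2 (27.9, 23.6 and 39.9) lay above that median on each plate. Lhx2, Pax6 and Gli3 lay below it on plates 1 and 2 and above it on plate 3. Apart from Lhx2, and Pax6 on plate 1, the members were counted in fewer than 50 cells of a plate. The median thus comes from more widely counted genes, and the placing against it is no result about these members. Cells were split here by a measured gene and share clones, so no test was made.

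**Figure D2:**
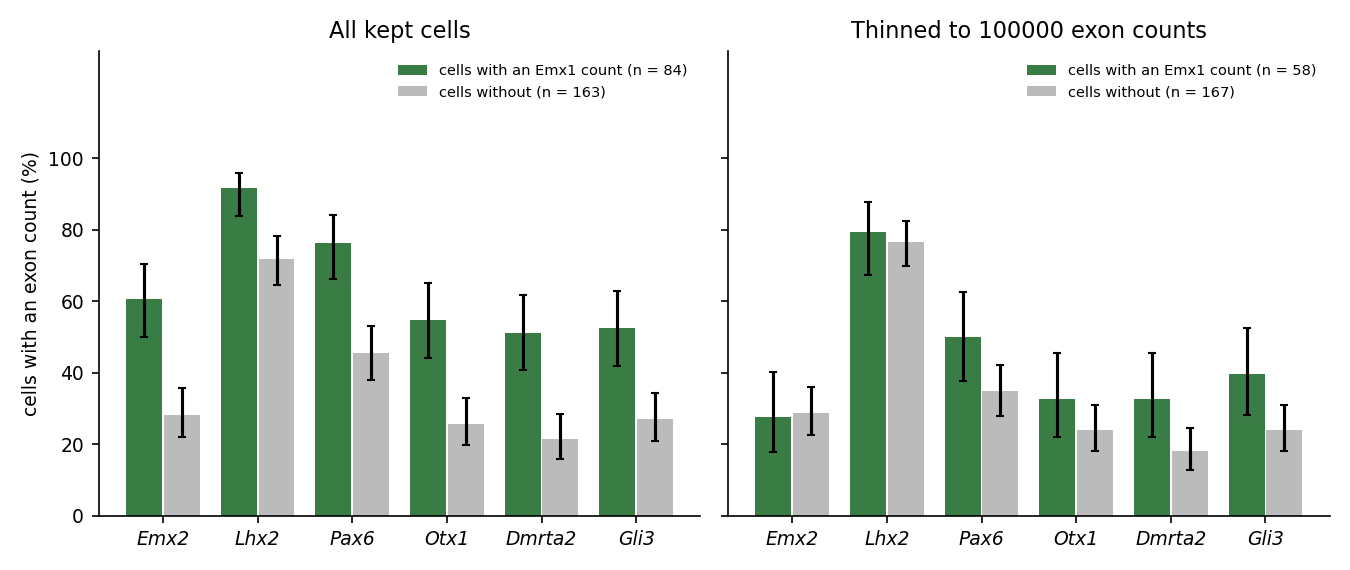
Share of cells in percent with an exon count of each other gene, in cells with (green bars) and without (grey bars) an Emx1 count, with 95% Wilson intervals, at the cells' own depth (left) and thinned to 100000 exon counts (right). For Emx2 the bars stand at 60.7% and 28.2% on the left and at 27.6% and 28.7% on the right.

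Markers of cell types were compared over the same split, first at the cells' own depth. The summed level of 10 excitatory neuron markers had a median of 9285 CPM in cells with Emx1 (range 1789 to 26984) and 7300 CPM in cells without (85.5 to 23570). For 10 radial glia markers the medians were 2784 CPM (643 to 15582) and 3018 CPM (52.9 to 31954). The 6 intermediate progenitor markers had medians of 149.01 CPM (0 to 928) and 46.7 CPM (0 to 1657), and Eomes, their defining factor, was counted in 61.9% of cells with Emx1 against 33.1% without, a difference of 28.8 points beside the median of 28.4 points over all genes. GABAergic neuron markers had medians of 11.6 (0 to 1040) and 0 CPM (0 to 1203), Cajal-Retzius markers of 87.1 (0 to 1767) and 12.1 CPM (0 to 4484), and mesenchyme markers of 9.36 (0 to 1320) and 0 CPM (0 to 2307). The choroid plexus and pluripotent lists had medians of 0 in both. In the thinned cells the median marker of a list was counted in 12.1% of cells with and 12.0% without Emx1 for GABAergic neurons, in 17.2% and 16.2% for mesenchyme, in 22.4% and 18.6% for Cajal-Retzius cells, in 32.8% and 22.5% for intermediate progenitors, in 69.8% and 62.6% for radial glia and in 97.4% and 93.1% for excitatory neurons. No marker of any of these lists was at 0 in all cells read. Their part in the shares above was not tested.

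Among pairs of the 7 genes, those among Emx2, Pax6 and Gli3 had the highest phi coefficients of detection after thinning to 1 total, which left unequal numbers of detected genes. By number of cells the pairs with Lhx2, the most widely counted gene, came first, with 77 thinned cells for Lhx2 with Pax6. The phi coefficient was 0.288 for Emx2 with Pax6 (both in 39 cells), 0.277 for Pax6 with Gli3 (38 cells) and 0.265 for Emx2 with Gli3 (30 cells). Emx1 reached at most 0.157, with Dmrta2 (19 cells), and stood at −0.011 with Emx2 (16 cells). At full depth all 21 pairs lay between 0.191 and 0.422, the highest being Dmrta2 with Gli3 (51 cells). The coefficients are weak, cells of 1 clone are not independent, and the values describe these cells only.

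The SN to N comparison asks whether these regulators differ between the 2 labelled kinds of clone, and none of the 7 passed the test. Exon counts were summed per clone over 42 SN clones (median 3 kept cells) and 20 N clones (median 5). Emx1 ran from 0 through a median of 3.28 to a highest value of 101.8 CPM in SN clones (mean 14.2, SD 22.3) and from 0 through 13.5 to 99.5 CPM in N clones (mean 19.7, SD 24.1). No Emx1 count was held by 13 SN clones and 2 N clones, and the ranges of both types overlap almost fully. The log2 difference was −0.57 ± 0.81 (SE), with a 95% interval from −2.19 to 1.04 (edgeR quasi-likelihood test, p = 0.481, adjusted p = 1).

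Emx2 ran from 0 through a median of 11.3 to 105.9 CPM in SN clones (mean 24.0, SD 30.9) and from 0.0834 through 14.3 to 197.4 CPM in N clones (mean 37.3, SD 54.9). Its log2 difference was −0.73 ± 0.72 (95% interval −2.18 to 0.71, adjusted p = 1), and 1 clone set its direction: without N clone 59, where Emx2 was highest, the value was 0.16. Clone 59 was shallow: its 2 kept cells held 142741 and 18255 exon counts, and Emx2 was counted in the first only, at 378 CPM. Lhx2 ran from 0 through 110.5 to 485 CPM in SN clones (mean 132.98, SD 111.3) and from 0 through 139.5 to 365 CPM in N clones (mean 158.5, SD 91.7). It was present in 41 of 42 SN and 19 of 20 N clones, and it gave the most precise difference, −0.36 ± 0.38 (95% interval −1.12 to 0.39, adjusted p = 1). The median level of Pax6 was 16.0 CPM over SN and 28.3 CPM over N clones, with highest values of 234.6 and 159.2 CPM, while the means were 39.7 (SD 60.2) and 38.1 CPM (SD 36.1). Its difference, 0.04 ± 0.67 (95% interval −1.29 to 1.37), became −0.36 without SN clone 52, which also held the highest Lhx2 and Gli3 levels.

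Otx1 had medians of 6.43 and 14.4 CPM in SN and N clones, highest values of 106.03 and 64.8 CPM, and a log2 difference of −0.34 ± 0.84 (95% interval −2.02 to 1.33). Dmrta2, at medians of 1.29 and 3.29 CPM and highest values of 88.7 and 63.2 CPM, stood at −0.05 ± 0.88 (95% interval −1.81 to 1.71), a value that changed sign (0.09) under the size factors of DESeq2. Gli3 had medians of 6.48 and 13.0 CPM, highest values of 245.6 and 83.2 CPM and a difference of 0.08 ± 0.79 (95% interval −1.49 to 1.65), which became −0.14 without clone 52. The medians of all 7 genes were lower in SN clones, and for Pax6, Dmrta2 and Gli3 the means were higher there. More SN than N clones held no count of Otx1 (13 of 42 and 2 of 20), Dmrta2 (16 and 4) and Gli3 (13 and 2). SN clones sum fewer cells (median 3 against 5), and the part of that in the medians and the zeros was not tested. The share of all genes with a lower median in SN clones is not given here, so the medians are no result about these genes.

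The members are set here beside all genes. The log2 difference was above 0 for 2 of the 7 (median −0.34) and for 40.2% of the 11914 genes tested (median −0.11). None of the 7 passed an adjusted p of 0.05, as did none of all genes (0 of 11914, 0%), and none had an unadjusted p under 0.05, a level passed by 0.327% of genes towards SN and by 1.74% towards N. Relative to the median of all genes, 3 of the 7 lay above it. With the size factors of DESeq2 the median of all genes moved to 0.07, and the genes at an unadjusted p under 0.05 split into 0.982% towards SN and 1.13% towards N. DESeq2's Wald test called 2 of the 11914 genes, no member among them.

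**Figure D3:**
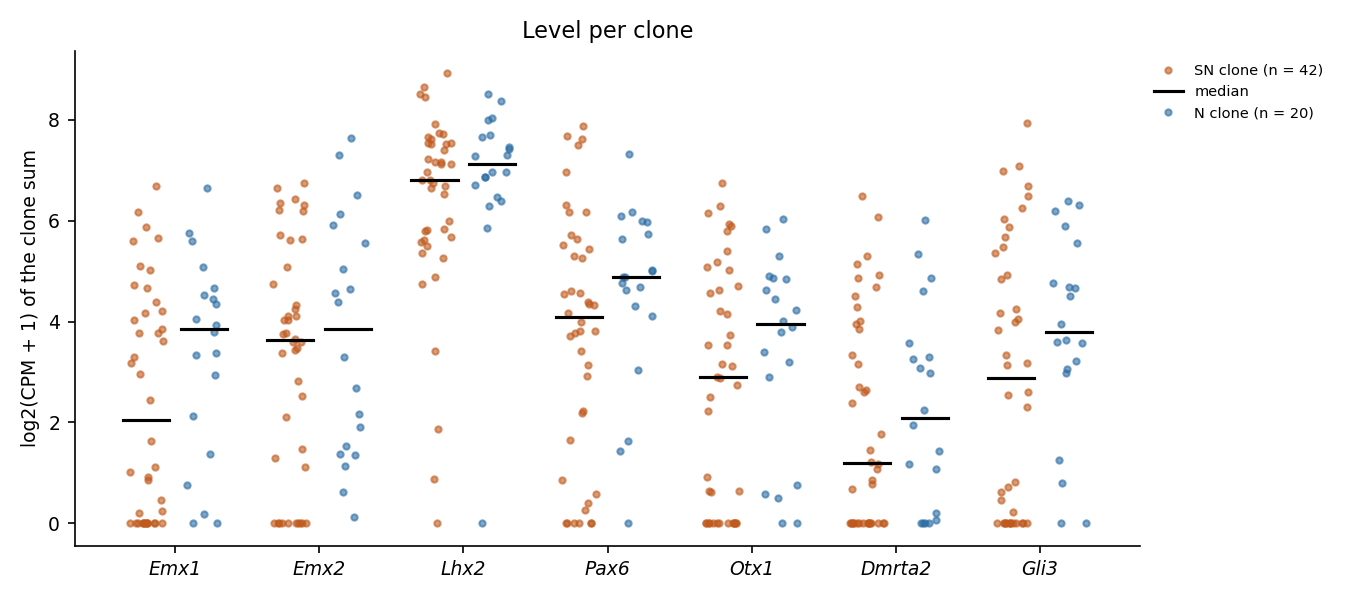
Level of each gene per clone as log2(CPM + 1) of the clone sum, with 42 SN clones (orange) and 20 N clones (blue) as points and the median as a bar. The points of both types overlap for each gene, and the points at 0 are clones without a count, 13 SN and 2 N clones for Emx1.

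The plates did not give 1 direction. N clone 45 lies on 2 plates: 3 of its 10 kept cells, with 88.4% of its exon counts and its only cell with Emx1, are on plate 2, and it was assigned to plate 3 with the other 7. For Emx1 the log2 differences of plates 1, 2 and 3 were −2.05, 0.19 and 0.28, and for Otx1 they were 1.21, −1.9 and 0.47. Emx2 (0.31, −1.42 and −0.77) and Lhx2 (−0.55, −0.88 and 0.44) each turned once as well. With clone 45 on plate 2, plate 2 gave 0.40 for Emx1 and −2.13 for Otx1, and plate 3 without it gave 0.11 for Emx1 and 1.10 for Otx1. Over all plates without clone 45, Emx1 stood at −0.65 and Otx1 at −0.17, and no member changed sign. A test of the difference between plates called none of the 7 genes and 0 of 11914 genes overall (0%), and its smallest unadjusted p among the members was 0.247, for Otx1 (edgeR quasi-likelihood test, adjusted p = 1). That p was 0.184 without clone 45 and 0.126 with it on plate 2, and no gene was called in either fit.

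**Figure D4:**
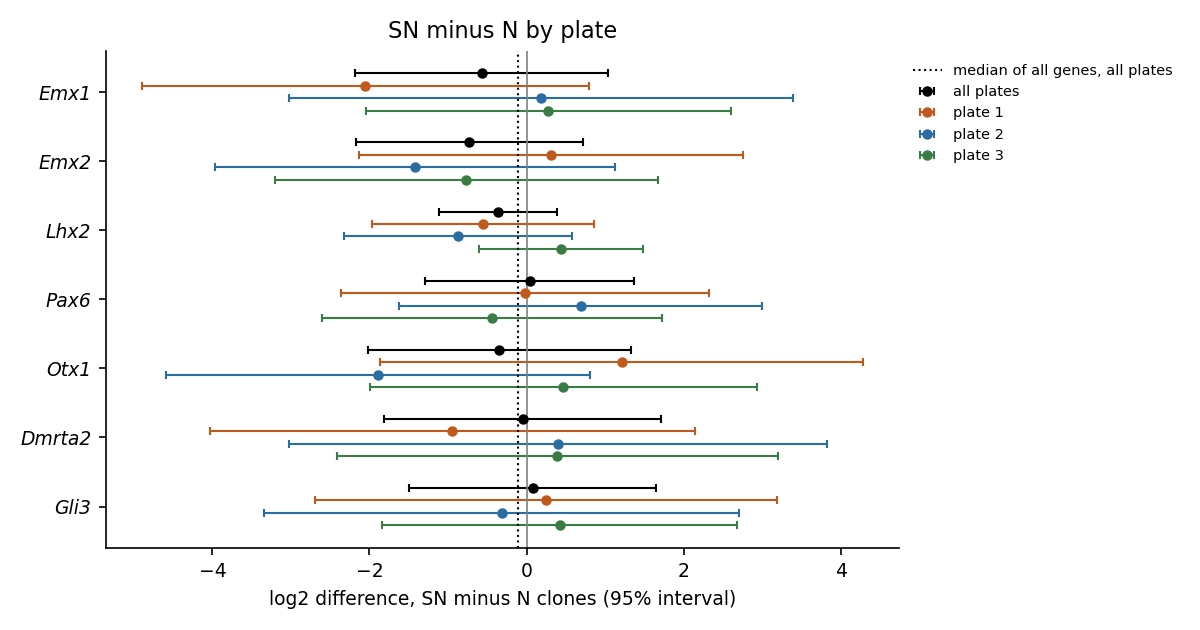
Log2 difference between SN and N clones for each gene with its 95% interval, over all plates (black) and for plates 1, 2 and 3 alone. The dotted line is the median of all genes over all plates, −0.11. Every interval over all plates spans 0, from that of Lhx2 (−1.12 to 0.39) to that of Gli3 (−1.49 to 1.65).

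Counted by cells instead of levels, Emx1 did not differ beyond the spread between clones either. The share of kept cells with an Emx1 count averaged 34.8% over 42 SN clones (SD 32.3) and 39.3% over 20 N clones (SD 29.2), a difference of −4.49 percentage points (two-sided permutation test, 100000 resamples, p = 0.599). The shares of both types ran from 0 to 100%, with medians of 33.3% and 35.4%. By plate the difference was 2.18, −21.3 and 7.48 points. It was −17.1 points on plate 2 with clone 45 and 3.47 points on plate 3 without it. With labels exchanged only within plates p was 0.599 as well, and with thinned cells the difference was −6.97 points (p = 0.370). The other genes had mean shares per SN and N clone of 42.5% and 40.0% for Emx2, 76.7% and 78.7% for Lhx2, 58.6% and 59.5% for Pax6, 35.3% and 39.5% for Otx1, 28.7% and 32.4% for Dmrta2, and 34.8% and 38.4% for Gli3, each with an SD between 21.9 and 34.0 points.

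Green and red cells of a clone descend from sister daughters of the recombined progenitor. Their comparison asks whether these genes differ between the colours in the same direction over clones. Differences between sister lineages that favour green in some clones and red in others cancel in it, so it does not measure those. In 45 clones with both colours, Lhx2 had a mean of 163.4 CPM in green (SD 147.6, median 131.4) and 120.05 CPM in red cells (SD 132.02, median 83.1). It was higher in green in 27 clones and in red in 17, and its log2 difference of 1.02 ± 0.59 (95% interval −0.16 to 2.20) had the smallest p of the members, 0.0898, with an adjusted p of 1 (edgeR quasi-likelihood test with clone as a term). In SN clones green was higher in 21 of 31 and in N clones in 6 of 14, and the test of that contrast gave 1.64 ± 1.20 (unadjusted p = 0.175, adjusted p = 0.999). The median of that contrast over all 7437 genes was 0.99, so Lhx2 lay 0.65 above it. The contrast called none of them (0 of 7437, 0%), and 3.55% had an unadjusted p under 0.05 with the green side larger in SN against 0.0269% with it larger in N.

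Emx1 was higher in green in 16 clones, higher in red in 20 and absent from both in 9. Its means were 15.5 CPM in green (SD 28.2) and 24.6 CPM in red cells (SD 60.7), and its difference −0.53 ± 1.16. Emx1 was counted in both colours of 15 clones only. Emx2 stood at 0.92 ± 1.34 (green higher in 20 clones, red in 17), Pax6 at −0.20 ± 1.04 (19 and 22) and Gli3 at −0.12 ± 1.24 (19 and 17). Otx1 and Dmrta2 did not pass the filter on low counts, and without that filter they stood at 0.25 ± 1.50 and −0.78 ± 1.24. The 5 genes that passed were tested among 7437, of which 0 (0%) were called, while an unadjusted p under 0.05 was reached by 1.29% of genes towards green and by 0.35% towards red. No member was among those. The median of the 5 members was −0.12 and that of all genes 0.18.

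Clone size, as labelled, ran from 2 to 6 in SN and from 4 to 19 in N clones. Medians of Emx1 were 11.3, 6.82 and 8.07 CPM in clones of 2 to 3 (n = 23), 4 to 6 (n = 29) and 7 or more cells (n = 10). Medians of Otx1 were 0.558, 12.3 and 25.6 CPM in these classes, of Dmrta2 0.804, 2.42 and 5.62 CPM, and of Gli3 3.95, 24.3 and 11.1 CPM. Otx1 and Dmrta2 thus had higher medians in the larger clones, which also sum more cells: 9 of 23 clones of 2 to 3 cells and none of the 10 largest lacked an Otx1 count, and the part of cell number in the levels was not tested. Per doubling of size, beside clone type and plate, the log2 slope was 0.93 ± 0.76 for Dmrta2 (p = 0.223), 0.65 ± 0.91 for Gli3, 0.61 ± 0.74 for Otx1, 0.15 ± 0.37 for Lhx2, −0.08 ± 0.71 for Emx2, −0.10 ± 0.73 for Pax6 and −0.44 ± 0.86 for Emx1 (edgeR quasi-likelihood test, adjusted p = 1 for each). None of the 7 was called, nor was any of the 11914 genes (0%). At an unadjusted p under 0.05, a level no member reached, 1.64% of genes had a slope above 0 and 0.94% a slope below 0. The median slope was 0.15 over the members and 0.07 over all genes.

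Within most clones each gene was counted in some kept cells and not in others. Emx1 was counted in all kept cells of 7 of the 62 clones, in none of 15 and in some of 40. The 15 clones without it held 42 cells (2 to 6 per clone) at a median of 1210296 exon counts, and 3 of them had an Emx1 intron count. The 7 clones with Emx1 in every cell held 2 to 3 kept cells each, at a median of 4838326 exon counts. Lhx2 was counted in every cell of 27 clones, some cells of 33 and no cell of 2. Pax6 was counted in every cell of 13 clones and no cell of 7, Emx2 of 8 and 10, Otx1 of 4 and 15, Gli3 of 3 and 15 and Dmrta2 of 3 and 20. For the 43 clones with at least 3 kept cells, Emx1 was mixed in 33, Emx2 in 37, Otx1 and Gli3 in 34 each, Pax6 in 35, Dmrta2 in 33 and Lhx2 in 27. These counts are not set beside those of all genes. The part in them of a gene's share of cells, of depth and of the few cells per clone was not tested.

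**Figure D5:**
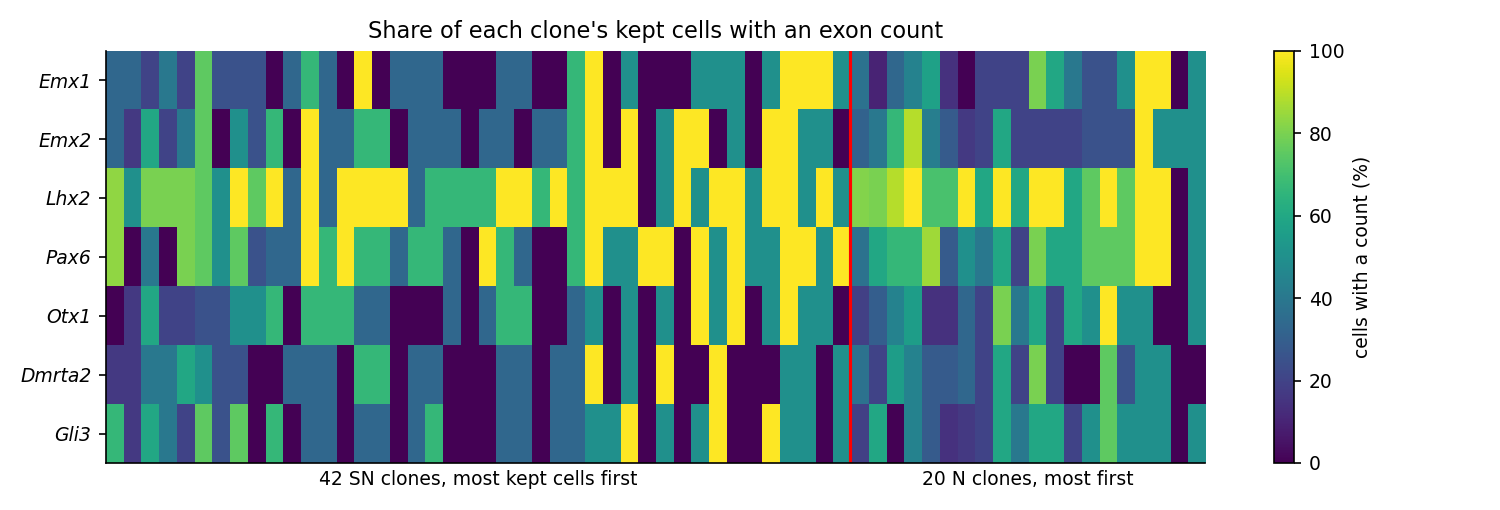
Share of the kept cells of each clone with an exon count of each gene, on a colour scale from 0% to 100%, with 42 SN clones left and 20 N clones right of the red line, ordered by kept cells. Lhx2 reaches 100% in 27 clones and Emx1 in 7, and Emx1 is at 0% in 15.

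The largest clones show this cell by cell. N clone 16, labelled with 19 cells, had Lhx2 in 13 of 16 kept cells (0 to 1331 CPM), Emx1, Pax6 and Dmrta2 in 6 each, Emx2 in 5 and Otx1 and Gli3 in 3 each. N clone 45 had Emx1 in 1 of 10 cells but Pax6 and Gli3 in 6 each, at a median of 453847 exon counts per cell. N clone 17 had Emx2 and Pax6 in 6 of 9 cells and Gli3 in none, and N clone 39 had Emx2 in 8 of 9 and Lhx2 in all 9. The single highest Dmrta2 cell (381 CPM) lay in clone 16 and the highest Gli3 value, the 10 counts in the shallowest cell read, in clone 45.

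The clone accounted for a small part of the variance between cells. The intraclass correlation of log2(CPM + 1), which is the share of variance between clones, was 0.105 for Emx2, 0.0962 for Lhx2, 0.0904 for Gli3, 0.0781 for Emx1, 0.0434 for Pax6, 0.0289 for Otx1 and 0.0216 for Dmrta2. Over the 8192 genes counted in at least 78 cells the median was 0.0396 (quartiles −0.0038 and 0.0849), so the values of Emx2, Lhx2 and Gli3 lay just above the upper quartile and the other 4 genes within the quartiles. Centred on the plate mean, Emx1 (0.0706) lay above the upper quartile (0.0633) too, and with ENSMUSG00000119584 and the mitochondrial mt-Rnr1 and mt-Rnr2 left out of the CPM Emx1 (0.0873) lay above it and Lhx2 (0.0786) just below it (0.0788). In thinned cells Lhx2 stood at 0.165, Gli3 at 0.0994, Emx2 at 0.0932, Otx1 at 0.0717, Emx1 at 0.0358, Dmrta2 at 0.0029 and Pax6 at 0.0016, against a median of 0.0348 and an upper quartile of 0.0828. The 95% intervals at full depth, −0.0052 to 0.243 for Emx2, −0.012 to 0.234 for Lhx2, −0.017 to 0.228 for Gli3 and −0.028 to 0.214 for Emx1, span the median and the upper quartile of all genes, so the placing is not beyond error, and no test was made.

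Other genes of forebrain patterning were followed in 4 lists, and none was called. Of 20 telencephalic and regional factors 17 were tested between SN and N clones, 8 above and 9 below 0, with a median of −0.26 against −0.11 over all genes and none called. Nr2f1 and Bcl11a, which mark caudal identity and deep-layer neurons, were the most widely counted (85.8% and 85.4% of cells) and stood at 0.18 ± 0.26 and −0.42 ± 0.29. Tcf7l1, a Wnt effector, was the list's smallest p (mean 3.87 CPM over SN clones, SD 9.16, and 15.3 CPM over N clones, SD 26.6, log2 −2.91 ± 1.22, p = 0.0195, adjusted p = 1, edgeR), followed by Dmrt3, a relative of Dmrta2, at −2.0 ± 1.13. Of 12 cortical hem genes, secreted signals and factors of the cortical edge, 6 were tested, 3 on each side of 0 (median −0.06), led in share of cells by Rspo3 (36.4%, 0.11 ± 0.74) and Wnt5a (33.6%, −0.24 ± 0.86), with Bmp7 (0.96 ± 1.13) and Msx1 (−0.91 ± 1.21) of smallest p.

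Genes of the ventral telencephalon, which the dorsal factors oppose, had a median share of cells of 6.07% over 13 genes. It was 15.2% for the cortical hem, 22.3% for the Hedgehog and 33.6% for the telencephalic list. Of 39469 gene IDs with any exon count, 11077 were counted in at least 50 cells. A low share was thus common and is no result about the ventral list. Of its genes 3 were tested, 2 above and 1 below 0 (median 0.22). Dlx1, a homeodomain factor of interneuron progenitors, was counted in 24.7% of cells (0.22 ± 1.06) and its neighbour and paralog Dlx2 in 13.0% (−2.05 ± 1.32). In the Hedgehog pathway, in which Gli3 acts, 8 of 12 genes were tested, 4 on each side of 0 (median −0.22). The receptor Ptch1 was counted in 51.8% of cells (0.43 ± 0.62) and the transducer Smo in 41.3% (0.55 ± 0.74), while the inhibitor Sufu (11.8 CPM in SN, SD 20.0, and 24.4 CPM in N, SD 30.6, −1.49 ± 0.77, p = 0.0576) and the cilium motor Kif7 (−2.42 ± 1.28, p = 0.0636) had the smallest p. None of the 4 lists had a called gene between the clone types, between colours or with size (edgeR, adjusted p).

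The genes whose level followed a member most closely over the 62 clones included no other member. By Pearson's r of log2(CPM + 1) among 11913 genes, Emx1 was most like Kcnj3 (0.57), Cacnb1 (0.54), Cdc25a (0.53), Arfgef2 (0.53) and Bcl6 (0.52), with a median r over all genes of 0.09. For Emx2 they were Cnot8 (0.58), Lims1 and Usp39 (0.55 each), for Lhx2 Ccdc174 (0.69), Srrm1 and Cab39 (0.65 each), and for Pax6 Crtc3 (0.59), Nfkbia (0.58) and Atg14 (0.55). For Otx1 they were Tmem243 (0.64), Nrf1 (0.63) and Fam214b (0.61), for Dmrta2 Gm37494 and Tmem250-ps (0.51 each) and Golim4 (0.49), and for Gli3 Pola1 (0.63), Plekha7 (0.57) and Tnrc6a (0.56). Each is the top of 11913 coefficients over clones that differ in depth and cell number, so the lack of another member there is no result about the members. Between members r ran from −0.07 (Emx1 with Emx2) to 0.48 (Lhx2 with Gli3). The median r over all genes ran from 0.08 for Dmrta2 to 0.19 for Otx1.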

How the data were processed

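Smart-seq3 libraries of 287 single cells were deposited as raw counts of reads in 2 tables, exon counts and intron counts per Ensembl gene ID, per the file headers with no scaling. STAR 2.7.9a, R 4.4.0 and build GRCm39 are named, per the submitters' processing notes. The counting tool, annotation, strand setting and any collapsing of reads by molecular identifier are not given in the sources used here. Every cell column was matched to a sample by its library name, and 3 cells whose clone is not labelled were left out of every comparison.

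From these counts the following was computed. Gene IDs were matched to symbols without their version (51948 of 55359 matched). Labelled cells with 1000 or more genes detected in exons were kept, 247 of 284 (131 in SN and 116 in N clones), and 225 of them could be thinned. CPM is the exon count per 1000000 of a cell's total, or, for a clone, per 1000000 of its summed total after TMM scaling. Counts were summed per clone with at least 2 kept cells, or per clone and colour, and tested across all genes by quasi-likelihood in edgeR 4.0.16 (R 4.3.3) after TMM scaling and filterByExpr, with plate as a term (plate and type for size, clone for colour), Benjamini-Hochberg adjustment over all genes tested and a threshold of 0.05. An SE was obtained by dividing the absolute log2 value by the root of its F statistic. The Emx1 share was tested by a two-sided permutation test with 100000 resamples. Thinning drew 100000 exon counts once per cell without replacement. Exon lengths are exon unions of GENCODE, and promoters are from RefSeq (6 of the 7 members matched), both on GRCm38. The fits, the intraclass correlation and the co-detection measure were tested on simulated data. Alternatives covered scaling, tool (DESeq2 1.42.0, limma 3.58.1), filters, plates, clone sizes, single clones, depth and intron counts; plates alone in the fits between SN and N and in the Emx1 share, leaving out the clone in which a member was highest, and leaving out or moving clone 45 were chosen after seeing the data.

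The 7 genes and the lists were chosen with earlier results of these data known. Named genes are the members, antisense partners, of each pathway list the 2 of largest share of cells and the 2 of smallest p between SN and N, and the genes most like a member (5 for Emx1, 3 for the others). A gene of the ventral list that this rule names is not reported here.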

Additional observations from a re-analysis of the deposited data

Results flagged for a closer look

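Cells outside the comparisons also held these genes above the 3 exon counts that a count of 0 allows. Of the 3 cells without a clone label, the second, with 13298 detected genes and 5976683 exon counts, held Emx2 at 150.3 CPM, Lhx2 at 353.7 CPM, Pax6 at 114.8 CPM, Otx1 at 20.6 CPM, Dmrta2 at 7.03 CPM and Gli3 at 32.6 CPM, but 3 counts of Emx1. The first, with 4954 genes and 1689914 exon counts, held Lhx2 at 118.3 CPM and Gli3 at 5.33 CPM and no count of Emx1, Emx2, Pax6 or Otx1. The third had 2257 exon counts and none of the 7 genes. Among the 37 labelled cells under 1000 detected genes, Lhx2 was counted in 3, with at most 18 counts, and Dmrta2 in 1, with 10 counts.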

How the results depend on the processing

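Depth limits most of these values: a cell or clone without a count may hold the gene below detection, and between SN and N clones the 95% interval is narrowest for Lhx2 (−1.12 to 0.39). No paired analysis was possible between SN and N clones because a clone has 1 type and the replicate numbers only name cells in accession order; green and red cells were compared within clones, with clone as a term. No member passed the threshold in any fit run.

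Of all genes, 0 were called between SN and N in the reported fit, 2 with DESeq2's Wald test, 2 with cells of at least 2000 genes and 6861 of 39336 without the filter on low counts, and the cause was not tested. Without that filter 1 gene was called between colours, and without the largest clone 1 with size.

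Signs between SN and N turned as follows. With intron counts Emx1 stood at 0.42, Lhx2 at 0.22 and Pax6 at −0.76, while Gli3, with 66.4% of its counts in introns, kept its sign and went from 0.08 to 1.04 ± 0.66 (edgeR, p = 0.120, adjusted p = 0.882; median of all genes −0.10). On plate 1 alone Emx2 stood at 0.31, Pax6 at −0.016 and Otx1 at 1.21. On plate 2 alone Emx1 stood at 0.19, Dmrta2 at 0.40 and Gli3 at −0.32. With clone 45 on it, plate 2 gave 0.40 for Emx1, 0.60 for Dmrta2 and −0.27 for Gli3. On plate 3 alone Emx1 stood at 0.28, Lhx2 at 0.44, Pax6 at −0.44, Otx1 at 0.47 and Dmrta2 at 0.39, and without clone 45 Emx1 at 0.11, Lhx2 at 0.46, Pax6 at −0.51, Otx1 at 1.10 and Dmrta2 at 0.22. Without plate 1 Emx1 stood at 0.21 and Dmrta2 at 0.37, without plate 2 Pax6 at −0.26 and Otx1 at 0.76, and without plate 3 Gli3 at −0.077. In clones of size 4 to 6 Pax6 stood at −1.43, Otx1 at 1.17 and Dmrta2 at 0.67. Cells of at least 2000 genes gave 0.19 for Emx2. Leaving out clone 59 gave 0.16 for Emx2 and −0.0072 for Pax6, clone 52 gave −0.36 for Pax6 and −0.14 for Gli3, and clone 55 gave −0.012 for Gli3. Pax6 stood at −0.026 without the low-count filter, Gli3 at −0.20 with equal weight per cell, and Dmrta2 at 0.086 with DESeq2's size factors, 0.086 with its Wald test and 0.015 without the plate term. With cells of at least 2000 genes, green minus red was 0.26 for Pax6 and the size slope 0.32 for Emx2, which was 0.022 without clone 45. The Emx1 share per clone was 2.18 points on plate 1 and 7.48 on plate 3 (3.47 without clone 45). The cause of these turns was not tested.

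Shares of cells moved beyond their interval as follows. With at least 4 counts they were 72.9% for Lhx2, 41.7% for Pax6 and 25.9% for Dmrta2, and with at least 10 counts 27.1% for Emx1, 32.4% for Emx2, 70.4% for Lhx2, 36.0% for Pax6, 28.3% for Otx1, 22.3% for Dmrta2 and 29.1% for Gli3. Thinned, they were 25.8% for Emx1, 28.4% for Emx2, 38.7% for Pax6, 26.2% for Otx1, 21.8% for Dmrta2 and 28.0% for Gli3. In cells of at least 2000 genes Lhx2 reached 85.9%. By intron counts they were 21.5% for Emx1, 11.7% for Emx2, 38.5% for Lhx2, 27.1% for Pax6, 6.88% for Otx1, 9.72% for Dmrta2 and 59.9% for Gli3, and with both kinds together 41.7% for Emx1 and 68.0% for Gli3. Differences in share beside Emx1 were, thinned, −1.16 points for Emx2, 2.66 for Lhx2, 15.3 for Pax6, 8.81 for Otx1 and 14.8 for Dmrta2, and on plate 3 they were 30.6 for Lhx2, 54.3 for Pax6 and 43.3 for Gli3. The intraclass correlations stayed within their 95% intervals under the 3 alternatives run.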
